A study of Homo sapiens with 8 samples.

Results

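The antisense transcripts described here are the genes of the counts table whose name ends in -AS1 and whose mean level over all 8 libraries was at least 1 CPM (counts divided by the library's total, times 1000000). The table held 59050 entries and 1114 of them carried an -AS1 name. The level of 1 CPM was reached by 233, which are the members. Each was compared with its partner, the gene named before -AS1. Members were thus selected on their mean level over both groups, and the difference between the groups was not used. A mean of 1 CPM or more was found in each group separately for 213 members, while 1 lay below it in the untreated group and 19 lay below it in the treated group.

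The RNA came from A498, an established human kidney cancer line of the clear cell type that carries a VHL mutation. Cultures were untreated (replicates 1 to 4) or kept for 4 h with IL1β, an inflammatory cytokine, at 30 ng/ml (replicates 5 to 8). Both groups share the line and the culture medium. The study's methods describe experimental pairs of treated and untreated cells, but the labels do not say which untreated and which IL1β library form a pair. The tests therefore treated the libraries as unpaired, and p-values measure the spread between these libraries.

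Natural antisense transcripts are RNAs made from the strand opposite to that of another gene. Many are long noncoding RNAs. They may overlap the body of the partner, or start back to back with it from a shared promoter region and run in the opposite direction. Some are known to act on the partner in cis, and others are better known for roles unrelated to it. IL1β acts through its receptor to activate NF-kB, a family of transcription factors that binds short DNA motifs (kB motifs) near the genes it induces.

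The named genes held 15409093 to 27040505 counts per library, so that 1 CPM, after TMM scaling of the library sizes (trimmed mean of M-values), stands for 13.6 to 27.3 counts. Of 10 known targets of IL1β checked in the same libraries, 5 rose (adjusted p under 0.05) and 9 had groups that did not overlap. The study had reported some of them, such as NFKBIZ, IL6 and CD274, as induced in this same sequencing, so the check is not independent. The first principal component held 42.7% of the variance and set 2 libraries away from the rest, untreated replicate 1 and IL1β replicate 5. Where a described gene changes its call or the overlap of its groups without them, both values are given. The renal markers KRT8, KRT18 and PAX8 were present, whereas EPCAM, CDH1 and CUBN stayed low and LRP2 had no count in any untreated library. The summed level of 4 fibroblast markers ran from 44.6 to 750 CPM in untreated and from 73.6 to 297 CPM in IL1β libraries. COL1A1 alone reached 680 CPM. The sum of 6 blood cell markers, with HBB of red cells among them, ran from 0.499 to 20.4 CPM and from 0.22 to 7.12 CPM. Of these, 5 stayed below 1 CPM in every library, CD3E at 0 throughout, and LYZ alone reached 19.5 CPM. The sum of 4 endothelial markers did not exceed 2.38 CPM. The part of these differences in the results below was not tested. In bulk RNA, fewer cells that make a transcript and less transcript per cell cannot be told apart.

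Almost all members were of low abundance. Their median level was 3.01 CPM and 67 reached 5 CPM, 28 reached 10 CPM and 3 reached 50 CPM. The median of the partners was 41.0 CPM. In GENCODE 44, 231 of the 233 members were found, 22 of them under a newer symbol, and 228 were annotated as long noncoding RNAs and 3 as pseudogenes. There, 14 members carried a name ending in -DT, for divergent transcript, in place of -AS1. Of the partners, 231 had an entry in the table, 228 were annotated as protein coding and 208 passed edgeR's filter on low counts, as did all 233 members. The other 23 partners were too low to test.

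The position of both genes was known for 228 pairs. In 151 pairs the genes overlapped on opposite strands, in 74 they were head-to-head (opposite strands with starts within 1000 bp of each other) and in 3 they lay apart. The median distance between the starts was 380.5 bp for head-to-head and 30375 bp for overlapping pairs. The share of a member's exon length that fell inside exons of its partner had a median of 6.75%, was 0 for 43 members and reached 50% or more for 19. The strand setting of the read counting is not given in the sources used here, so reads from such shared stretches cannot be assigned with certainty. For reference, 18 genes of over 300 bp had at least 98% of their exon length inside exons of an opposite-strand gene above 50 CPM. None of the 18 was at 0, 17 stood below 2% of the level of the enclosing gene, and the median was 0.345%. The other, GPATCH4, stood at 130% of NAXE. How reads shared by both genes were counted is not given either, so these levels cannot tell the strand setting. Of the members described below, PABPC4-AS1 (1.12% of its partner's level), PAX8-AS1 (0.883%), KTN1-AS1 (1.2%), CEBPB-AS1 (0.706%), MYLK-AS1 (1.07%) and MORF4L2-AS1 (0.179%) stood below 2% and share exon sequence with the partner. Whether their counts hold reads of the partner was not tested.

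The most abundant member was AFAP1-AS1, whose partner AFAP1 encodes an actin filament-associated protein. AFAP1-AS1 is annotated on hg38 at chr4:7754077-7778928, plus strand. Its untreated libraries held 428, 356, 320 and 300 CPM and its IL1β libraries 341, 315, 359 and 357 CPM, so that the groups lay over each other (log2 fold change -0.03 ± 0.16, SE, edgeR adjusted p 0.976). AFAP1 itself held 23.1 to 31.1 CPM untreated and 33.2 to 51.1 CPM with IL1β, with no overlap (0.66 ± 0.19, adjusted p 0.2). Per kilobase of exon AFAP1-AS1 reached 28.5 CPM and AFAP1 3.36 CPM, although 42.2% of the exon length of AFAP1-AS1 lies within exons of AFAP1.

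The next 4 members by level were FGD5-AS1, OIP5-AS1, MSC-AS1 and THAP9-AS1. FGD5-AS1 held 71.5 to 83.9 CPM untreated and 59.0 to 76.5 CPM with IL1β (log2 fold change -0.27 ± 0.15, adjusted p 0.591), while its partner FGD5, a guanine nucleotide exchange factor best known from endothelium, did not exceed 0.257 CPM in any library. OIP5-AS1 is also known as cyrano, a conserved noncoding RNA. Its untreated libraries held 133, 62.7, 91.3 and 60.9 CPM and its IL1β libraries 65.5, 49.2, 59.1 and 58.7 CPM (-0.58 ± 0.26, adjusted p 0.464). OIP5, which encodes a protein of centromere assembly, stood at 1.87 CPM in untreated replicate 1 and 1.1 CPM in IL1β replicate 5 but between 12.9 and 21.5 CPM in the other 6 libraries. These are the same 2 libraries that stood apart over all genes. Without them the groups of OIP5-AS1 were separated downwards (-0.35 ± 0.19, adjusted p 0.519).

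THAP9-AS1, head-to-head with the transposase-derived gene THAP9 at a distance of 276 bp, held 27.3 to 76.0 CPM untreated and 31.9 to 58.8 CPM with IL1β. THAP9 held 1.49 to 4.11 CPM and 1.88 to 4.19 CPM. Neither gene of this pair differed beyond the spread of its libraries (log2 fold changes -0.18 ± 0.32 and -0.15 ± 0.39, adjusted p 0.905 and 0.943).

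**Figure D1:**
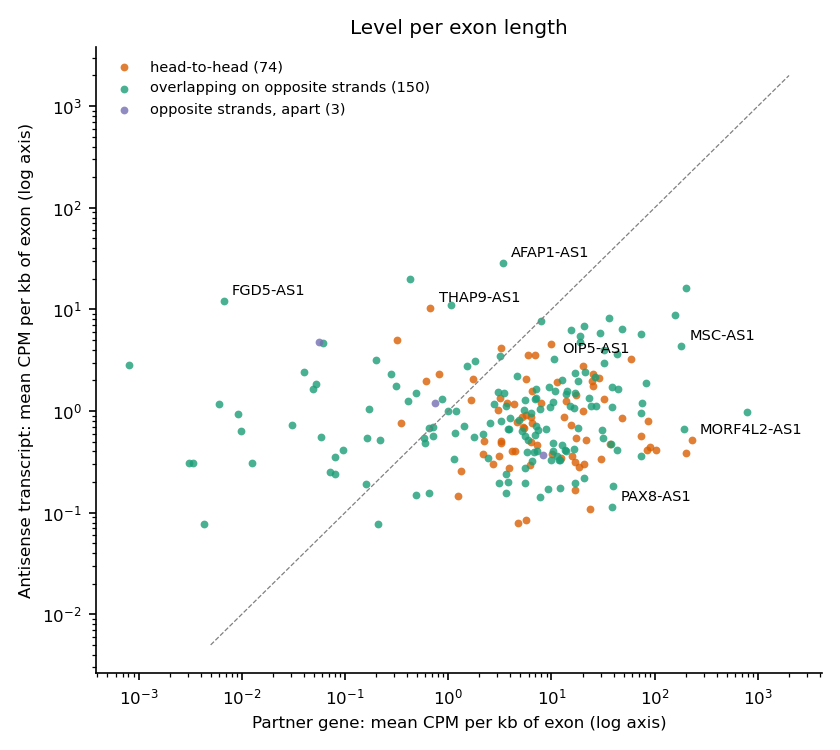
Mean CPM per kilobase of exon of each antisense transcript (vertical, log axis) against that of its partner (horizontal, log axis) in 227 pairs, coloured by arrangement; the dashed line marks equal levels. Most points lie below the line; above it lie, among others, AFAP1-AS1 at 28.5 against 3.36 and FGD5-AS1 at 12.1 against 0.00669.

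Per exon length, 47 of 228 members exceeded their partner and 64 stood below 5% of it. The median log2 ratio of antisense to partner level per length was -3.44 for head-to-head and -2.62 for overlapping pairs. No test of this difference was run. UBAC2-AS1, RAP2C-AS1 and MYLK-AS1 were the members just above the limit, at 1.03, 1.04 and 1.05 CPM, and UGDH-AS1, ATP2B1-AS1 and ITGA9-AS1 lay just outside it, at 0.987, 0.979 and 0.977 CPM. The first 3 had log2 fold changes of 0.11, 0.00 and -0.05.

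Did the antisense transcripts respond to 4 h of IL1β? At an adjusted p under 0.05, 0 of the 233 members rose and 0 fell, by edgeR, by DESeq2 and by limma-voom alike. Over all 15062 genes tested, 140 rose (0.929%) and 9 fell (0.0598%). At an unadjusted p under 0.05, 4 members were higher and 14 lower with IL1β, where 6.23% of all genes were higher and 4.55% lower. Of the 213 members at 1 CPM or more in each group, 4 were higher and 9 lower at that level. By the cut-offs of the study (log2 fold change beyond 1 in either direction with an unadjusted p under 0.01), 0 members were higher and 1 was lower, ATP6V1B1-AS1. Of all genes, 2.12% passed as higher and 0.471% as lower.

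In 11 members every IL1β library lay below every untreated library, and in 0 members every IL1β library lay above. Across all genes tested 4.6% were separated upwards and 3.41% downwards. Such a separation of 4 from 4 libraries has an exact two-sided permutation p of 0.0286, the smallest this design can give. Some members, such as ZNF436-AS1, ATP6V1B1-AS1, TMC3-AS1, RTCA-AS1 and MORF4L2-AS1, had a mean below 1 CPM with IL1β and reached the limit only through the untreated group. Among the 213 members at 1 CPM or more in each group, 8 were separated downwards and 0 upwards. Without untreated replicate 1 and IL1β replicate 5, 14 members were separated upwards and 39 downwards, where 11.6% and 8.43% of all genes were. In that fit as well, 0 members passed the adjusted threshold, against 2.5% of all genes that rose and 0.357% that fell.

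The log2 fold changes of the members had a median of -0.14 (quartiles -0.41 and 0.06), with 150 below 0 and 83 above. For the 213 members at 1 CPM or more in each group the median was -0.10, with 132 below 0 and 81 above. All genes tested had a median of -0.02 and the partners had one of 0.05. The median of the members moved with single libraries. It was -0.03 without untreated replicate 1, -0.29 without IL1β replicate 5 and -0.13 without both. Per library, the median deviation of the members from their own mean on the log2 scale was highest in untreated replicate 1 (0.29) and second highest in IL1β replicate 5 (0.13), both libraries that stood apart, and between -0.13 and 0.05 in the other 6. With library size alone in place of TMM, the median of all genes moved to -0.18, that of the members to -0.30 and that of the partners to -0.12, so that the members stayed 0.12 below all genes.

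Other noncoding transcripts were counted beside the members. Among 42 genes with other antisense, intronic or divergent names at 1 CPM or more, 0 rose and 0 fell, with a median log2 fold change of -0.24. At an unadjusted p under 0.05, 2 of these were higher and 3 lower, and 2 were separated upwards and 1 downwards. Among 111 LINC genes, noncoding RNAs that lie between genes, 1 rose, 0 fell and the median was -0.11. Of these 7 were higher and 4 lower at an unadjusted p under 0.05, and 5 were separated upwards and 3 downwards. The members had 0 upwards and 11 downwards with all 8 libraries. Without untreated replicate 1 and IL1β replicate 5 they had 14 and 39. No test of the difference between these lists and the members was run.

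The 11 members with separated groups covered levels from about 1 to 12 CPM. ZNF436-AS1 had the largest difference. It lies head-to-head with ZNF436, a zinc finger gene, with starts 897 bp apart (chr1:23368939-23371839, plus strand). Untreated libraries held 1.14, 1.22, 1.81 and 1.94 CPM, and IL1β libraries 0.367, 0.386, 1.11 and 0.403 CPM. Replicate 7 of the IL1β group came close to the lowest untreated library and the other 3 did not (log2 fold change -1.40 ± 0.46, adjusted p 0.273). ZNF436 moved the same way, from 18.7 ± 3.38 CPM (SD, n = 4) to 10.7 ± 1.31 CPM (SD, n = 4), also without overlap (-0.80 ± 0.20, edgeR adjusted p 0.122).

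ID2-AS1 and ID2 formed the other pair in which both genes were lower without overlap. ID2 encodes an inhibitor of helix-loop-helix transcription factors. ID2-AS1 held 2.31, 2.99, 2.65 and 2.39 CPM untreated and 0.661, 2.14, 1.64 and 1.95 CPM with IL1β (log2 fold change -0.68 ± 0.37, adjusted p 0.585). ID2 held 10.7, 21.4, 18.8 and 17.6 CPM against 7.71, 9.05, 5.4 and 7.66 CPM (-1.20 ± 0.26, adjusted p 0.0772). Without untreated replicate 1 and IL1β replicate 5, ID2 passed the threshold (-1.37 ± 0.22, adjusted p 0.0159) and ID2-AS1 did not (-0.46 ± 0.29, adjusted p 0.575).

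ATP6V1B1-AS1 and TMC3-AS1 were measured where their partners were close to absent. ATP6V1B1 encodes a kidney subunit of the vacuolar proton pump, TMC3 a transmembrane channel-like protein, and both had counts in only 2 of 8 libraries, at no more than 0.129 CPM. ATP6V1B1-AS1 held 1.94, 2.22, 1.43 and 1.74 CPM untreated against 0.955, 0.944, 0.917 and 0.47 CPM with IL1β (-1.14 ± 0.35, unadjusted p 0.00872, adjusted p 0.223). TMC3-AS1 held 1.91, 1.44, 1.05 and 1.79 CPM against 0.808, 0.815, 0.917 and 0.739 CPM (-0.91 ± 0.33, adjusted p 0.328). The IL1β libraries of TMC3-AS1 were tightly grouped, the untreated ones spread.

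GABPB1-AS1 starts 464 bp from GABPB1, a subunit of the ETS-family factor GABP, and runs the other way. It held 7.34, 10.0, 12.5 and 10.1 CPM untreated and 4.04, 6.01, 7.29 and 6.25 CPM with IL1β (-0.76 ± 0.26, adjusted p 0.289). The highest IL1β library and the lowest untreated library nearly touched. GABPB1 had 34.3 ± 10.9 CPM (SD, n = 4) and 48.3 ± 10.5 CPM (SD, n = 4), with overlap (0.49 ± 0.27, edgeR adjusted p 0.58), and was separated upwards without untreated replicate 1 and IL1β replicate 5 (0.57 ± 0.25, adjusted p 0.372).

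In the other separated members described here the partner had overlapping groups. KTN1-AS1 (partner kinectin, a membrane anchor of kinesin) held 3.26 to 5.25 CPM untreated and 2.06 to 2.8 CPM with IL1β. SBF2-AS1 (partner a myotubularin-related protein) held 5.34 to 6.9 CPM and 3.9 to 5.29 CPM. The partners KTN1 and SBF2 had log2 fold changes of -0.14 and -0.17, neither past the threshold (adjusted p 0.926 and 0.823). ENTPD1-AS1, whose partner is the ectonucleotidase CD39, held 11.9 to 13.6 CPM untreated and 10.7 to 11.1 CPM in 3 IL1β libraries, close below, with IL1β replicate 5 lower at 6.54 CPM (-0.33 ± 0.22, adjusted p 0.671).

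PABPC4-AS1 and PITPNA-AS1 share more than 50% of their exon length with their partners, 79.4% and 63.9%. PABPC4 encodes a cytoplasmic poly(A)-binding protein and PITPNA a phosphatidylinositol transfer protein. PABPC4-AS1 held 3.71, 4.43, 3.03 and 3.64 CPM untreated and 2.35, 2.4, 2.07 and 2.62 CPM with IL1β, which is 1.12% of the level of PABPC4. PABPC4 was level at 272 ± 30.7 and 268 ± 27.5 CPM (SD, n = 4 each). PITPNA-AS1 held 6.16, 5.54, 7.35 and 4.98 CPM against 3.89, 4.55, 4.73 and 2.55 CPM, and PITPNA 169 ± 7.14 and 177 ± 3.67 CPM (SD, n = 4 each). PITPNA was separated upwards without untreated replicate 1 and IL1β replicate 5 (log2 fold change 0.13 ± 0.12, adjusted p 0.751). Both antisense transcripts missed the threshold, with log2 fold changes of -0.65 ± 0.25 and -0.61 ± 0.27 (edgeR adjusted p 0.378 and 0.457).

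**Figure D2:**
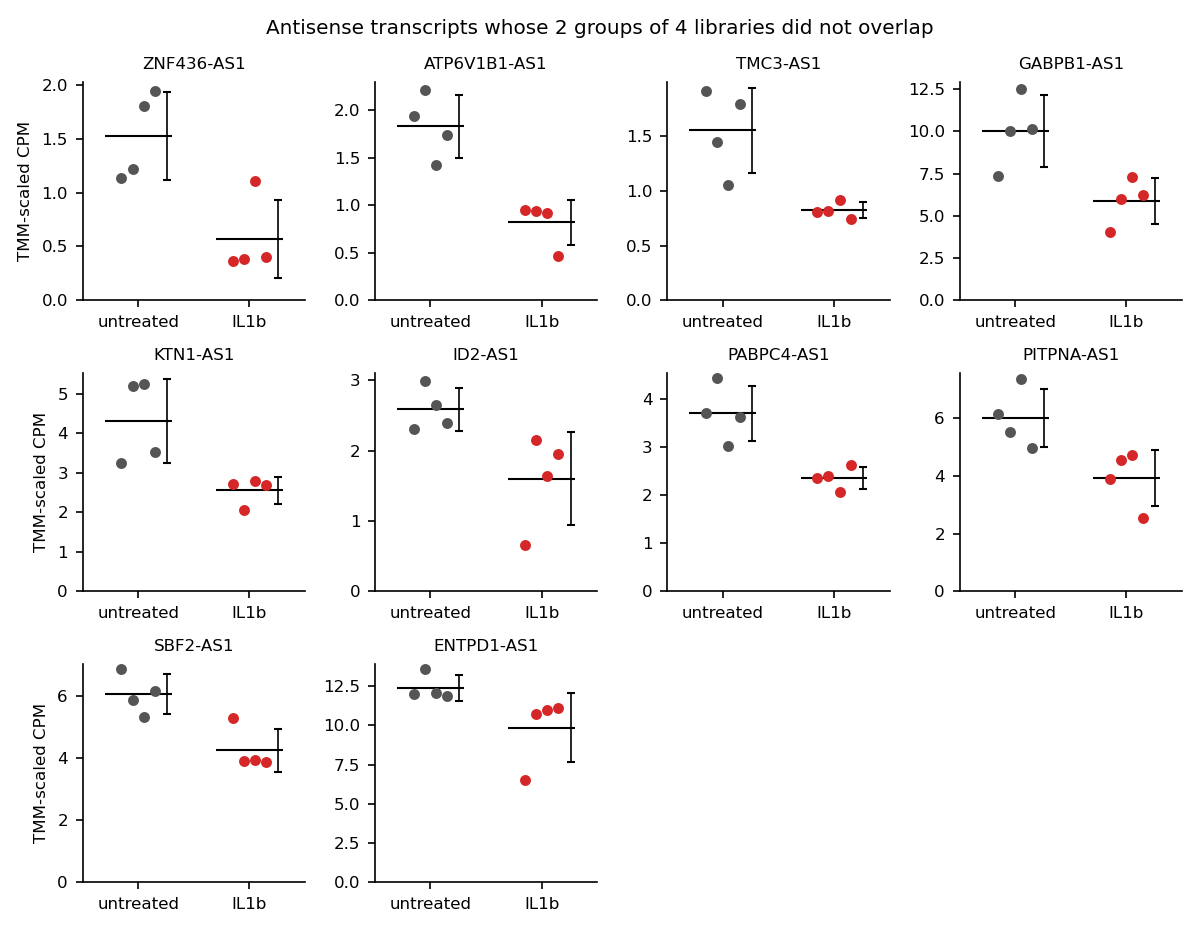
TMM-scaled CPM of 10 of the antisense transcripts whose IL1β libraries (red) all lay below their untreated libraries (grey). Points are libraries in replicate order, the horizontal line is the mean and the bar is ± 1 SD (n = 4). Gaps between the groups are narrow in several panels, such as ZNF436-AS1 with 1.11 CPM in an IL1β library beside 1.14 CPM in an untreated one.

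The largest positive differences among the members did not separate the groups of 4 libraries. C1QTNF1-AS1 came first. Its partner encodes a secreted C1q-related protein, and its untreated libraries held 37.6, 6.48, 3.28 and 11.1 CPM. The IL1β libraries held 73.8, 19.6, 19.7 and 25.5 CPM (log2 fold change 1.24 ± 0.73, adjusted p 0.618). Untreated replicate 1 exceeded 3 of the 4 IL1β libraries, and without that library and IL1β replicate 5 the fold change was 1.66 ± 0.38 with an adjusted p of 0.0637 and no overlap. C1QTNF1 held 1.72 to 7.52 CPM and 4.8 to 8.08 CPM.

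IER3-AS1 lies over IER3, an early response gene known to be induced by NF-kB. IER3-AS1 held 5.47, 4.6, 3.28 and 6.72 CPM untreated and 19.5, 7.55, 4.83 and 10.3 CPM with IL1β (1.07 ± 0.42, adjusted p 0.382). IER3 held 83.2, 89.2, 108 and 181 CPM against 476, 281, 161 and 331 CPM (1.44 ± 0.36, adjusted p 0.12). In both genes replicate 7 was the lowest IL1β library and lay among the untreated ones. Of the exon length of IER3-AS1, 49.9% lies within exons of IER3, and its level was 3.64% of that of IER3.

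ST20-AS1, CEBPB-AS1 and RAB11B-AS1, all head-to-head with their partners, followed with log2 fold changes of 1.05 ± 0.53, 0.92 ± 0.59 and 0.89 ± 0.49 (adjusted p 0.533, 0.659 and 0.587). Each had its highest value in IL1β replicate 5, at 15, 3.09 and 4.85 CPM, and its highest untreated value in replicate 1, at 7.3, 1.32 and 2.53 CPM. Without these 2 libraries all 3 were separated upwards, with log2 fold changes of 1.09 ± 0.30, 0.73 ± 0.54 and 0.91 ± 0.38 (adjusted p 0.124, 0.658 and 0.346). CEBPB, a transcription factor of inflammatory and acute phase responses, held 73.0 to 142 CPM untreated and 186 to 249 CPM with IL1β, with no overlap (0.91 ± 0.22, adjusted p 0.106). ST20 and RAB11B had log2 fold changes of 0.47 ± 0.36 and 0.43 ± 0.22 (adjusted p 0.721 and 0.526).

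At the other end stood RTCA-AS1, which reached the limit of 1 CPM only through the untreated group. Among the 213 members at 1 CPM or more in each group, the lowest log2 fold change was -0.88. RTCA encodes the RNA 3'-terminal phosphate cyclase and its start lies 34 bp from that of RTCA-AS1 in GENCODE. RTCA-AS1 held 0.99, 2.88, 1.34 and 1.15 CPM untreated and 0, 0.601, 1.16 and 0.538 CPM with IL1β (log2 fold change -1.41 ± 0.74, adjusted p 0.561). One IL1β library was above the second lowest untreated one. RTCA held 50.5 to 82.0 CPM and 69.1 to 84.9 CPM (0.18 ± 0.18, adjusted p 0.792), and was separated upwards without untreated replicate 1 and IL1β replicate 5 (0.25 ± 0.16, adjusted p 0.588). The promoter window of RTCA-AS1 is shown because it contains the starts of both genes of this pair. It is taken from RefSeq (GRCh38.p14), runs from 250 bases before to 50 after the start of RTCA-AS1, and is given 5′ to 3′ on the minus strand of chr1:100266125-100266424. The capitals mark the stretch from the RefSeq start of RTCA to that of RTCA-AS1, both included, which are 42 bp apart there. Of its bases 65% are G or C and it holds 26 CG pairs.
RTCA-AS1: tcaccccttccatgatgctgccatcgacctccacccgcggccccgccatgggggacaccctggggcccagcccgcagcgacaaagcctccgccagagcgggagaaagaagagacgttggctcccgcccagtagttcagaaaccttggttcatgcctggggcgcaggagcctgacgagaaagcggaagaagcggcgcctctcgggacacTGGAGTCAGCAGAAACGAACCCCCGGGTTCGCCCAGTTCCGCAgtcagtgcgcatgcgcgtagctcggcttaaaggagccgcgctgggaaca

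MORF4L2-AS1 was also among the 5 lowest fold changes, and it too reached the limit only through the untreated group. MORF4L2 belongs to a histone acetyltransferase complex. MORF4L2-AS1 held 1.58, 0.942, 1.18 and 2.14 CPM untreated and 0.588, 0.558, 0.483 and 1.14 CPM with IL1β (-1.08 ± 0.42, adjusted p 0.378), with overlap between the groups. Its level was 0.179% of that of the partner, with 8.15% of its exon length in partner exons. MORF4L2 had a log2 fold change of 0.02.

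Which partners responded, and did their antisense transcripts move with them? Of the 208 partners tested, 4 rose and 0 fell, against the 0.929% and 0.0598% of all genes given above. At the thresholds of the study 8 were higher and 2 lower, where 2.12% and 0.471% of all genes were. The number that rose was 7, and that fell 2, without untreated replicate 1 and IL1β replicate 5. In that fit 2.5% of all genes rose and 0.357% fell. Groups were separated upwards in 22 partners and downwards in 5, against 4.6% and 3.41% of all genes. That split depended on the scaling, with 17 and 13 by upper-quartile factors and 12 and 17 by library size alone. The share of all genes under these scalings is not given here. Among the 22, the antisense transcript had a log2 fold change above 0 in 13, with a median of 0.09.

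PAX8, a transcription factor of the renal lineage, rose with IL1β. Its untreated libraries held 136, 136, 107 and 220 CPM and its IL1β libraries 519, 365, 368 and 438 CPM (log2 fold change 1.5 ± 0.24, adjusted p 0.0239). PAX8-AS1 (chr2:113211421-113276581, plus strand), which overlaps it with 7.47% of its exon length in PAX8 exons, held 2.49, 1.05, 0.714 and 5.63 CPM and then 2.79, 2.4, 1.5 and 3.63 CPM. The untreated values spanned all the IL1β values (0.06 ± 0.61, adjusted p 0.991).

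TRAF3IP2, also called ACT1, the adaptor of the IL17 receptor, had closely grouped IL1β libraries. It held 21.0, 25.4, 27.4 and 33.7 CPM untreated and 72.2, 64.0, 68.0 and 68.4 CPM with IL1β (1.34 ± 0.18, adjusted p 0.011). TRAF3IP2-AS1 (chr6:111483459-111598783, plus strand) shares no exon sequence with TRAF3IP2 and held 1.69, 1.16, 1.09 and 1.25 CPM against 1.62, 0.772, 1.3 and 1.34 CPM (-0.06 ± 0.35, adjusted p 0.981). The partner rose and its antisense transcript stayed inside the untreated range but for 1 library below it.

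MSC encodes musculin, a helix-loop-helix repressor. It held 210, 153, 234 and 318 CPM untreated and 560, 489, 470 and 523 CPM with IL1β (1.16 ± 0.22, adjusted p 0.0467), and its adjusted p was 0.0532 without untreated replicate 1 and IL1β replicate 5. MSC-AS1, the fourth most abundant member, held 81.3, 37.5, 30.8 and 37.7 CPM and then 91.0, 39.5, 39.2 and 44 CPM (0.19 ± 0.38, adjusted p 0.922). The highest library of each group was again untreated replicate 1 and IL1β replicate 5. Without them the groups of MSC-AS1 were separated upwards, with a log2 fold change of 0.23 ± 0.14 and an adjusted p of 0.569.

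CBR3, a carbonyl reductase, held 27, 22.8, 22.0 and 31.9 CPM untreated and 78.4, 55.2, 59.4 and 51.1 CPM with IL1β (1.23 ± 0.20, adjusted p 0.0235). CBR3-AS1 (chr21:36131767-36175815, minus strand) was the only antisense transcript of the 4 with an unadjusted p under 0.05. It held 2.35, 2.94, 2.06 and 3.84 CPM and then 5.88, 3.39, 5.02 and 4.03 CPM (0.71 ± 0.30, unadjusted p 0.0413, adjusted p 0.432). A single untreated library, replicate 4, reached into the IL1β range.

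**Figure D3:**
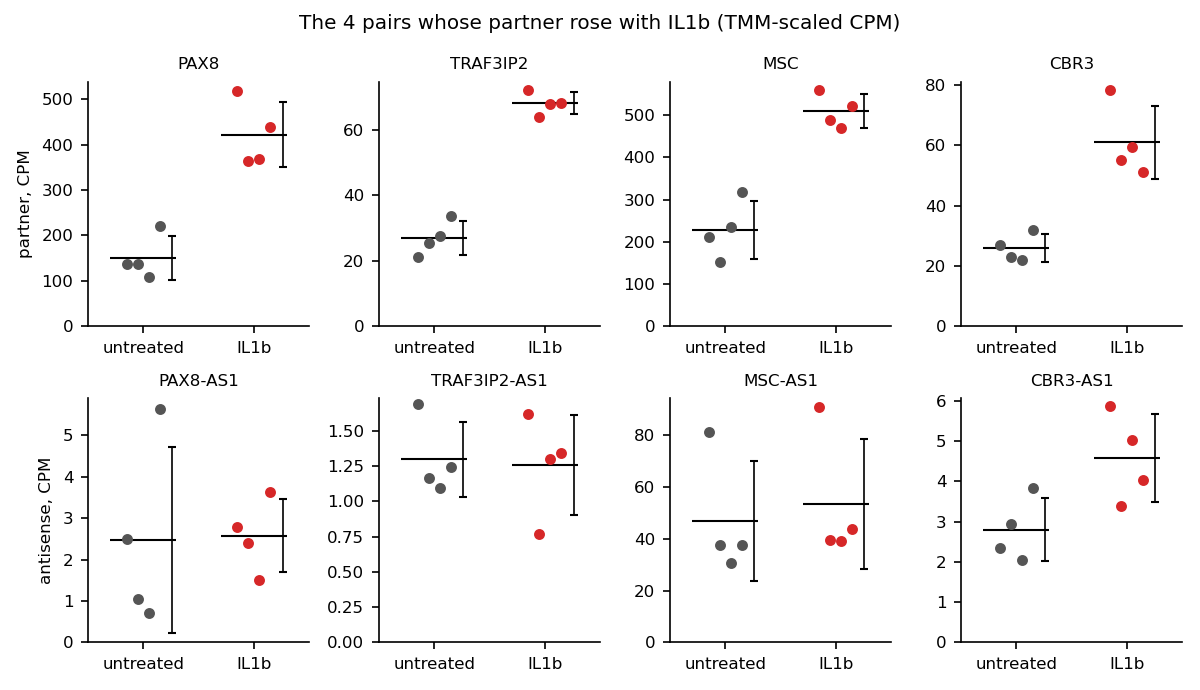
TMM-scaled CPM per library of the 4 partners that rose with IL1β (upper row) and of their antisense transcripts (lower row); untreated libraries are grey, IL1β libraries red, the line is the mean and the bar ± 1 SD (n = 4). The upper panels have no overlap between groups, such as TRAF3IP2 at 21.0 to 33.7 against 64.0 to 72.2 CPM, and all lower panels overlap.

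Since kB motifs are known near genes that IL1β induces, they were counted in the RefSeq promoter windows of 300 bases (GRCh38.p14), on both strands and with overlapping matches allowed. A gene with several windows counted once if any of them held the motif. A window was found for 176 of the 233 members, and 19 of these held the motif (10.8%), against 7.09% of all 27305 genes with a window. The share was 4.62% among head-to-head members (3 of 65) and 15.1% among overlapping ones (16 of 106), and 7.45% among partners (14 of 188). The median G and C content was 64.3% for members and 58.3% for all genes with a window, and its part in these shares was not tested. A match is a description of the letters and not a binding site. No match was found in the windows of PAX8 and TRAF3IP2, which rose, or of CBR3-AS1. Windows with a match are shown for PAX8-AS1, whose partner rose, C1QTNF1-AS1, which had the highest log2 fold change, and PITPNA-AS1, whose groups separated downwards. The capitals mark the motif, all 3 are written 5′ to 3′ along the transcript, and the windows are chr2:113235277-113235576 (plus), chr17:79027606-79027905 (minus) and chr17:1516669-1516968 (plus).
PAX8-AS1: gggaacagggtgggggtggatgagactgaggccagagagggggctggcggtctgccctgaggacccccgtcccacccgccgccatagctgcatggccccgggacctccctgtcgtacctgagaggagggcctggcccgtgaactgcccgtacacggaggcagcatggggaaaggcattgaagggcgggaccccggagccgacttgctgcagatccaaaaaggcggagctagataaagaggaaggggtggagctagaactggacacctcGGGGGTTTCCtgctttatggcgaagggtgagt
C1QTNF1-AS1: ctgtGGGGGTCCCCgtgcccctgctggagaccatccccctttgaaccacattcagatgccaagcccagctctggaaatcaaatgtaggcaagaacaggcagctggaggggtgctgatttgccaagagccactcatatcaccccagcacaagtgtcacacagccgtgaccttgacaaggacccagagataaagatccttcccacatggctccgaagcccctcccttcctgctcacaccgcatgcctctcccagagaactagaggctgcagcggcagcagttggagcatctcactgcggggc
PITPNA-AS1: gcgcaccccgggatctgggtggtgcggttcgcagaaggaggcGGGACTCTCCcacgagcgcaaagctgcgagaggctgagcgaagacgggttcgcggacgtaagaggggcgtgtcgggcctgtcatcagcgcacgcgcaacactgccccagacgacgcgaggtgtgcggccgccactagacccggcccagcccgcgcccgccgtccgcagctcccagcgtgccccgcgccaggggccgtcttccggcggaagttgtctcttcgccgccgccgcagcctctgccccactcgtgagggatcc
Counted from the transcript's start, the motif begins at 18 in PAX8-AS1, at -246 in C1QTNF1-AS1 and at -208 in PITPNA-AS1. RefSeq gives PAX8-AS1 a second window, chr2:113236019-113236318 (plus), which holds no match, and both windows lie inside the GENCODE span of this gene. These 3 members had log2 fold changes of 0.06, 1.24 and -0.61, none past the threshold.

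Over the 208 pairs with both genes tested, the log2 fold changes of member and partner had a Pearson correlation of 0.34 and a Spearman correlation of 0.28. All points come from the same 8 libraries and the same scaling, and genes are not independent replicates. The Pearson value was 0.30 in the 74 head-to-head and 0.37 in the 130 overlapping pairs. It was 0.26 over 574 annotated pairs of a noncoding and a coding gene on opposite strands, member pairs among them. Both genes had values above 0 in 49 pairs and below 0 in 66. The member was below 0 and the partner above in 70, and the reverse held in 23.

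**Figure D4:**
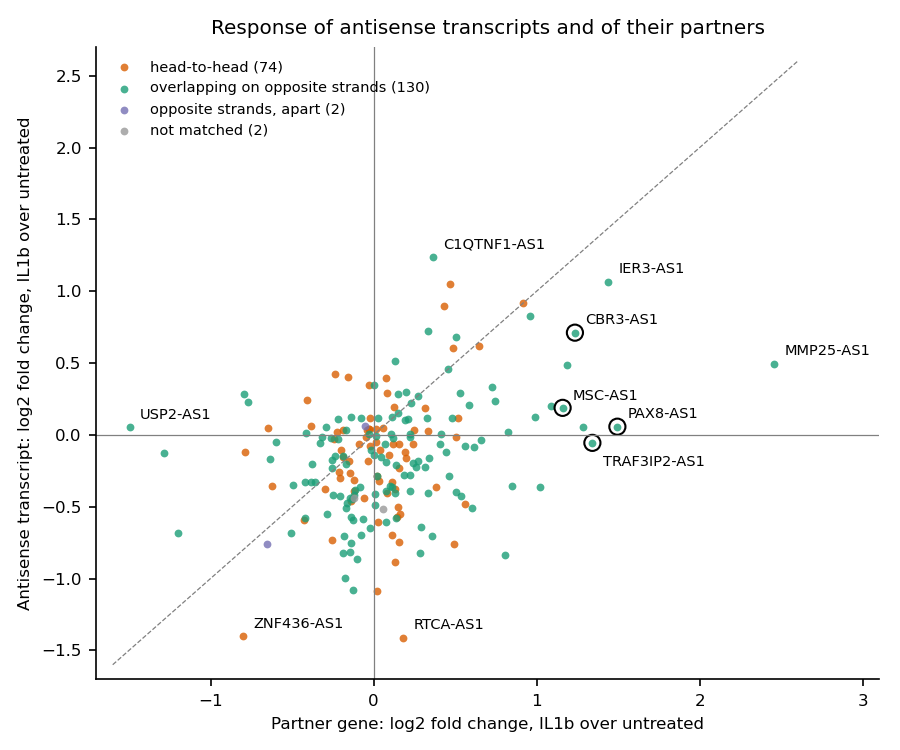
Log2 fold change (IL1β over untreated) of each antisense transcript (vertical) against that of its partner (horizontal) in 208 pairs, coloured by arrangement; circles mark the 4 partners that rose and the dashed line marks equal responses. The circled points reach 1.16 to 1.5 on the partner axis and -0.06 to 0.71 on the antisense axis.

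The balance within a pair was measured in each library as the log2 ratio of antisense to partner level, with a prior count of 2. The median change of this ratio with IL1β was -0.23 over 208 pairs, with 145 below 0 and 63 above, and -0.19 over the 574 noncoding and coding pairs. It was -0.09 in head-to-head and -0.31 in overlapping pairs. No overlap between the groups was found in 20 pairs that were lower and 2 that were higher, each with an exact two-sided permutation p of 0.0286, unadjusted. Of the 574 pairs, 4.88% were separated downwards and 1.57% upwards, and of all 2940 tested opposite-strand pairs 6.7% were separated in either direction. Both of these sets contain member pairs, so they are not independent of the members. Without untreated replicate 1 and IL1β replicate 5, 41 pairs were lower and 11 higher, against 15.5% and 3.83% of the 574. Of the 20 lower pairs 17 overlapped and 3 were head-to-head.

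ZNF710-AS1 had the largest change among the separated pairs. ZNF710 is a zinc finger gene and held 13.4, 14.6, 17.9 and 22.1 CPM untreated and 28.6, 32.3, 28.7 and 29.4 CPM with IL1β (log2 fold change 0.81 ± 0.19, adjusted p 0.106). ZNF710-AS1 (chr15:90074512-90082207, minus strand) went the other way, from 4.95, 6.71, 12.7 and 8.52 CPM to 3.75, 4.03, 5.45 and 5.18 CPM (-0.83 ± 0.32, adjusted p 0.355), with overlap that was gone without untreated replicate 1 and IL1β replicate 5 (-0.92 ± 0.28, adjusted p 0.178). The log2 ratio was -1.41, -1.11, -0.50 and -1.36 untreated and -2.90, -2.97, -2.38 and -2.48 with IL1β, a change of -1.59 ± 0.26 (SE).

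In MMP25-AS1, HLA-F-AS1 and TRAF3IP2-AS1 the ratio changed by -1.46, -1.45 and -1.42, without overlap. MMP25, a membrane-anchored matrix metalloproteinase, held 0.11, 0.111, 0.168 and 0.548 CPM untreated and 2.94, 1.07, 0.627 and 0.605 CPM with IL1β (2.46 ± 0.73, adjusted p 0.208). Before scaling, a single count stood for 0.037 to 0.0602 CPM in the untreated libraries. MMP25 thus held few counts there, and the prior count weighs on the size of its ratio change. MMP25-AS1 held 2.52 to 4.43 CPM and 4.17 to 5.0 CPM (0.50 ± 0.27, adjusted p 0.573). HLA-F, a nonclassical class I gene, held 10.4 to 28.8 CPM and 29.9 to 66.3 CPM (1.02 ± 0.35, adjusted p 0.303), and HLA-F-AS1 1.22 to 2.24 CPM and 0.815 to 2.2 CPM.

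Some large changes of the ratio had overlapping groups. For RTCA-AS1 the change was -1.88 ± 0.94 and for STARD4-AS1 -1.52 ± 1.26. STARD4, a sterol carrier, held 75.2 CPM in untreated replicate 1 but 9.37 to 13.7 CPM in the other untreated libraries, and 20.2 to 50 CPM with IL1β. Without untreated replicate 1 and IL1β replicate 5, STARD4 rose (1.44 ± 0.28, adjusted p 0.0315) and STARD4-AS1 was separated downwards (-0.73 ± 0.31, adjusted p 0.344).

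Changes towards the antisense side were led by USP2-AS1, NR2F1-AS1, C1QTNF1-AS1, RARA-AS1 and MAP3K14-AS1. USP2, a deubiquitinase, held 1.72, 1.16, 1.64 and 1.05 CPM untreated and 0.808, 0.257, 0.29 and 0.672 CPM with IL1β, without overlap (-1.5 ± 0.46, adjusted p 0.229), while USP2-AS1 held 1.3 to 4.04 CPM and 1.29 to 3.75 CPM. Its ratio changed by 1.52 ± 0.38, also without overlap. RARA, a retinoic acid receptor, held 25.1 to 58.3 CPM and 18.6 to 25.5 CPM, and the ratio of RARA-AS1 to it changed by 0.98 ± 0.36 without overlap.

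In NR2F1-AS1 the groups of both genes overlapped. NR2F1, an orphan nuclear receptor, held 10.4, 24.4, 33.7 and 21.8 CPM untreated and 4.19, 11.6, 11.4 and 9.68 CPM with IL1β (-1.28 ± 0.40, adjusted p 0.241), and fell past the threshold without untreated replicate 1 and IL1β replicate 5 (-1.27 ± 0.21, adjusted p 0.0166). NR2F1-AS1 held 4.38 to 8.04 CPM and 4.55 to 6.13 CPM (-0.12 ± 0.26, adjusted p 0.928). MAP3K14, the kinase of the noncanonical NF-kB route, held 47.2 to 156 CPM and 26.7 to 84.8 CPM, and MAP3K14-AS1 4.98 to 8.55 CPM and 6.22 to 12.3 CPM. The ratio of that pair changed by 0.98 ± 0.76 with overlap. MAP3K14 was separated downwards without untreated replicate 1 and IL1β replicate 5 (-0.75 ± 0.24, adjusted p 0.199).

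**Figure D5:**
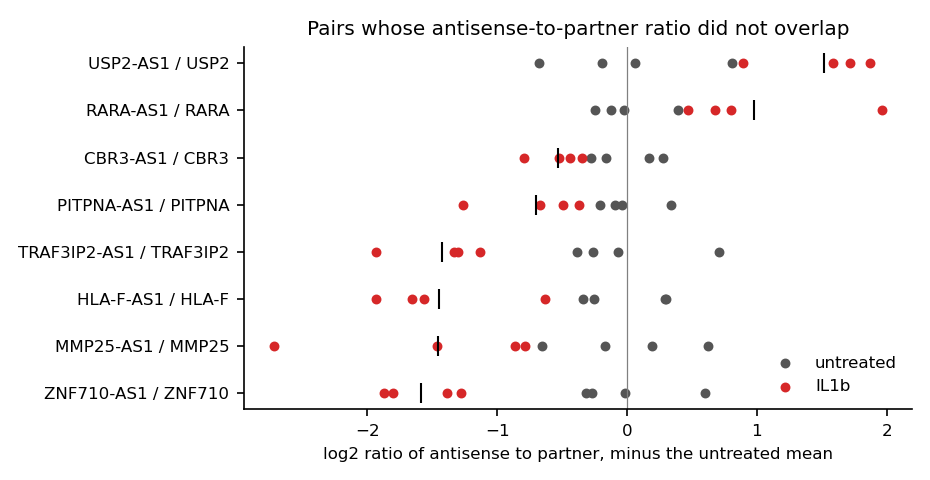
Log2 ratio of antisense to partner level per library, minus the untreated mean, in 8 of the pairs whose groups did not overlap; grey points are untreated and red points IL1β libraries (n = 4 each), and the black tick is the IL1β mean. The ticks run from -1.59 for ZNF710-AS1 to 1.52 for USP2-AS1, with 6 of the 8 on the negative side.

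One -AS1 gene just outside the limit did pass the adjusted threshold, and it is named here after its values were seen. ROR1-AS1, at a mean of 0.973 CPM, held 0.11, 0.166, 0.042 and 0 CPM untreated and 2.5, 2.14, 1.88 and 1.41 CPM with IL1β (log2 fold change 4.55 ± 0.62, adjusted p 0.0115). All IL1β libraries were far above all untreated ones. ROR1, a receptor tyrosine kinase-like protein, held 10.1 to 47.2 CPM and 8.82 to 56.4 CPM (0.29 ± 0.59, adjusted p 0.926). At a limit of 0.5 CPM the list would hold 344 genes, and ROR1-AS1 would be its 1 call.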

How the data were processed

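RNA of 8 A498 cultures was sequenced from stranded libraries. Per the labels and the study's methods, the authors used STAR 2.5.3a for alignment of trimmed reads to hg38 and featureCounts for counting, and the deposited values are raw counts per gene, with 1 column per library. For featureCounts, neither version, annotation nor strandedness is stated. Of the entries, 27 carried a date in place of a symbol (0.197% to 0.236% of counts) and were left out of fits.

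Differences between the groups were fitted by edgeR 4.0.16 under R 4.3.3 (filterByExpr, TMM, quasi-likelihood F test on treatment alone) with Benjamini-Hochberg adjustment across 15062 genes. The words rose and fell mean an adjusted p under 0.05. The SE is the log2 fold change divided by the square root of F. Single values were compared by the exact two-sided permutation test of 4 against 4 libraries. Ratios within pairs are log2 with a prior count of 2. The scripts were tested on simulated data. GENCODE 44 gave positions and exons, RefSeq (GRCh38.p14) gave promoters.

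The members and lists were chosen with earlier results of these data known. Named were members past the adjusted threshold or with such a partner, those with groups that did not overlap, the 5 largest fold changes and ratio changes each way, the 5 most abundant, and 3 on each side of 1 CPM. Alternatives were RLE, upper-quartile and no factors, DESeq2 1.42.0, limma-voom (limma 3.58.1), other filters, limits and prior counts, each library left out, both libraries that stood apart left out, and libraries thinned to 15409093 counts (seed 1). No library was left out of the comparison itself. Some members that this rule names are not reported here.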

Additional observations from a re-analysis of the deposited data

Results flagged for a closer look

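In 146 groups of 4 libraries, those of the named antisense transcripts and their tested partners, 20 held a single library far from the other 3 (a gap past Dixon's critical value). Chance gives about 1 in 20 groups. The part of any cause was not tested.

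IL1β replicate 5, which also stood apart over all genes, accounted for 11 of these. It was high for MSC-AS1 (91.0 CPM against 39.2 to 44 CPM in the other IL1β libraries), SBF2-AS1 (5.29 against 3.9 to 3.96), UBAC2-AS1 (2.5 against 0.531 to 0.772), ST20-AS1 (15 against 4.8 to 5.55), MAP3K14-AS1 (12.3 against 6.22 to 7.12), C1QTNF1-AS1 (73.8 against 19.6 to 25.5) and CEBPB-AS1 (3.09 against 0.941 to 1.16). Among partners it was high for HLA-F (66.3 against 29.9 to 36.0) and C1QTNF1 (8.08 against 4.8 to 5.11). It was low for ENTPD1-AS1 (6.54 against 10.7 to 11.1) and for MYLK (41.7 against 94.7 to 105).

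Untreated replicate 1 was high for MSC-AS1 (81.3 CPM against 30.8 to 37.7 CPM), USP2-AS1 (4.04 against 1.3 to 1.44) and STARD4 (75.2 against 9.37 to 13.7).

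Other libraries gave 6 values. ZNF436-AS1 was high in IL1β replicate 7 (1.11 CPM against 0.367 to 0.403 CPM) and KTN1-AS1 was low in IL1β replicate 6 (2.06 against 2.69 to 2.8). IL1β replicate 8 was low for ATP6V1B1-AS1 (0.47 against 0.917 to 0.955) and high for MORF4L2-AS1 (1.14 against 0.483 to 0.588). ENTPD1-AS1 was high in untreated replicate 2 (13.6 against 11.9 to 12.1) and MMP25 was high in untreated replicate 4 (0.548 against 0.11 to 0.168).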

How the results depend on the processing

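The count of 0 members past the adjusted threshold held under every alternative tried except a limit of 0.5 CPM, where 1 rose. Members separated upwards numbered 0 and became 2 with no filter and 1 after thinning, and those separated downwards went from 11 to 21 with library size alone. The 1 member past the thresholds of the study became 2 by upper-quartile factors, DESeq2 and limma-voom, 3 by library size alone, and 0 with no filter, a limit of 2 CPM or 1 CPM in each group; the limit of 0.5 CPM gave 1 higher and 3 lower, and separated 1 member upwards. Partners that rose went from 4 to 12 by DESeq2, where 3 fell. Of all 15062 genes, 423 rose and 109 fell by DESeq2, against 140 and 9 in the main fit. Separated partners were 13 downwards by upper-quartile factors, 12 upwards and 17 downwards by library size, 14 and 3 at 2 CPM, and 9 downwards at 0.5 CPM. A prior count of 5 left 1 pair with a higher ratio. Without untreated replicate 1 and IL1β replicate 5, members separated 14 upwards and 39 downwards, 2 were higher and 0 lower by the thresholds of the study, 7 partners rose and 2 fell, 37 were separated upwards and 10 downwards, and ratios were higher in 11 and lower in 41 pairs. With 3 libraries in a group, separation is easier to reach by construction. In the fits with a single library left out, 38 to 218 of all genes rose and 0 to 12 fell. The share of all genes separated is not given here for those fits, for other scalings and filters or for thinning. Leaving out each library in turn gave 0 to 9 members separated upwards and 12 to 31 downwards, 0 to 2 higher and 0 to 1 lower by the thresholds of the study, 1 to 4 partners that rose and 0 to 1 that fell, 22 to 29 partners separated upwards and 6 to 10 downwards, and 2 to 7 pairs with a higher and 21 to 32 with a lower ratio. TRAF3IP2 kept its call under all of these, while PAX8, CBR3 and MSC lost theirs under 6, 5 and 10 settings. Of 713 values of named genes under alternatives, 40 uncalled ones changed sign and 0 called ones did. The causes were not tested. No paired analysis was possible because the groups share no replicate numbers and the labels do not say which libraries form the experimental pairs of the study. At 1 CPM a library holds 13.6 to 27.3 counts of a member, which limits the precision of most members.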
